A study of Mus musculus with 8 samples.

Results

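The 10 genes described here encode the main enzymes of bile acid synthesis and conjugation and a pair of nuclear receptors that govern them: Cyp7a1, Cyp8b1, Cyp27a1, Cyp7b1, Amacr, Acox2, Slc27a5, Baat, Nr1h4 (FXR) and Nr0b2 (SHP). They were chosen by name and matched by Ensembl identifier, and all 10 were found among 23634 genes of one deposited table and 21201 of the other, called the larger and the smaller table. The series holds 8 mouse libraries in 4 groups of 2: RNA of whole liver from Cpeb4 KO and from wild-type mice, and RNA of endoplasmic reticulum (ER) purified from livers of both genotypes. The ER came from mice fasted overnight. The feeding state of the whole-liver mice, the strain, age and sex, the allele and whether Cpeb4 was removed from hepatocytes alone are not in the labels, and whether paired libraries of 1 group represent different animals is not stated either. The spread behind every p-value may therefore be technical. CPEB4 binds target mRNAs and regulates the length of their poly(A) tails and how well they are translated.

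Bile acids are made from cholesterol in hepatocytes, and their synthesis is a main route by which the body disposes of cholesterol. In the classic pathway CYP7A1 adds the first hydroxyl group in the ER and sets the rate, and CYP8B1 adds the hydroxyl group that yields cholic acid. In the alternative pathway CYP27A1, in mitochondria, and CYP7B1, in the ER, act on the side chain and then the ring. Peroxisomal enzymes shorten the side chain, and bile acids that are joined to CoA are passed on to taurine or glycine. Bile acids bind FXR, which induces SHP, and SHP represses Cyp7a1 and Cyp8b1. In mice, fasting and time of day are known to move several of these transcripts.

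Both deposited tables hold the authors' own comparison of the genotypes and give 1 value per gene, with no value per library, so no spread between samples can be shown for any gene. Which RNA preparation each table covers is written neither in the labels nor in the headers, and none is assigned here. The mean counts of all genes in the authors' deposited tables sum to 3.74e+07 (larger) and 3.68e+07 (smaller), and the low values show 4 libraries behind each. Cpeb4 had log2 fold changes (± SE) of -1.16 ± 0.11 and -1.10 ± 0.13 in the authors' deposited larger and smaller tables, the order used for paired values throughout. Negative values are read as lower in the knockout for that reason, so Cpeb4 is no independent check of the labels. The hepatocyte marker list carried 6.58% and 3.38% of the summed mean counts, with albumin at 1307220 and 555793. The bile duct list carried 0.0104% and 0.00706%, and its defining marker Krt19 had means of 29.1 and 47.3 in the deposited tables.

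CPEB proteins bind short U-rich elements between the stop codon and the poly(A) tail, so those of the 10 transcripts are shown first. The words TTTTAT and TTTTAAT, of which neither contains the other, were searched on the transcript strand of each gene's longest coding transcript in GENCODE M21, on the GRCm38 assembly that the mm10 name stands for. They occurred in 4 of the 10 genes, at 19 sites, of which 18 were TTTTAT and 1 was TTTTAAT. Of 11815 tested genes with annotated sequence after the stop codon, 62.2% held at least 1. Cyp7a1 had 11 sites in 2600 bases, against a median of 3 among 1607 tested genes with a stretch within 20% of that length, of which 89.2% held at least 1. Cyp7b1 had 3 sites in 507 bases, where 41.8% of genes of similar length held any. Nr1h4 had 2 in 337 bases (31.8%) and Amacr had 3 in 1377 bases (72.1%). Cyp8b1, Cyp27a1, Nr0b2, Baat, Slc27a5 and Acox2 had none in 406, 233, 300, 398, 130 and 255 bases. A match is a word in the annotation, not a measured binding site, and the tables do not show which transcript ends were used.

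The sites of Nr1h4 and Cyp7b1 are shown because they lie in short stretches near the annotated end, and 4 of Cyp7a1 because it had the most. Each is 30 bases of the transcript strand, with the element in capitals.
Nr1h4, chr10:89454439-89454468, minus strand: agctaggggcaTTTTATtcttcattcgaca
Nr1h4, chr10:89454408-89454437, minus strand: tattatatataTTTTATaaagttgagctgt
Cyp7b1, chr3:18072190-18072219, minus strand: cttactatgatTTTTATcatttgtagtgaa
Cyp7b1, chr3:18072137-18072166, minus strand: ctccagggtgaTTTTATttaagttactgaa
Cyp7b1, chr3:18072104-18072133, minus strand: ctctaatatggTTTTATgttctgccagaaa
Cyp7a1, chr4:6267994-6268023, minus strand: acgtcttttgtTTTTATtttcaaaatgaag
Cyp7a1, chr4:6267684-6267713, minus strand: ctctcgctataTTTTAATttattgttgctg
Cyp7a1, chr4:6266226-6266255, minus strand: tcttctcatatTTTTATtcttgtgaagtga
Cyp7a1, chr4:6266035-6266064, minus strand: gtgactaaaacTTTTATtgggatatcagaa
The Nr1h4 elements ended 79 and 48 bases before the annotated transcript end, and those of Cyp7b1 253, 200 and 167 bases before it. The last of the 11 in Cyp7a1 ended 436 bases before it, and 5 of the 11 began within 600 bases of the stop codon.

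None of the 10 genes differed between knockout and wild type at an adjusted p of 0.05 in either table (DESeq2's Wald test as the authors deposited it), where 0.296% of 14180 tested genes (larger table) and 0.266% of 11661 (smaller table) passed. Higher in the knockout were 0.0917% and 0.163% of all tested genes, and lower were 0.205% and 0.103%. At an unadjusted p under 0.05 there were 2 members, Cyp7b1 and Cyp8b1, in the larger table, against 3.62% of all tested genes, and 1, Cyp7b1, in the smaller, against 4.11%. Of the members, 6 were above 0 and 4 below in the larger table, with a median log2 fold change of 0.02. In the smaller there were 5 on each side, with a median of 0.01. The medians of all tested genes were -0.0008 and 0.0008, with 49.6% and 50.3% above 0. All 10 had an adjusted p in both tables, so no member was lost to the authors' filter on low means. Given their standard errors, the members' deposited log2 fold changes would have had to reach 0.31 to 0.43 (larger table) or 0.37 to 0.50 (smaller table), depending on the gene, to match the weakest statistic that passed there.

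**Figure D1:**
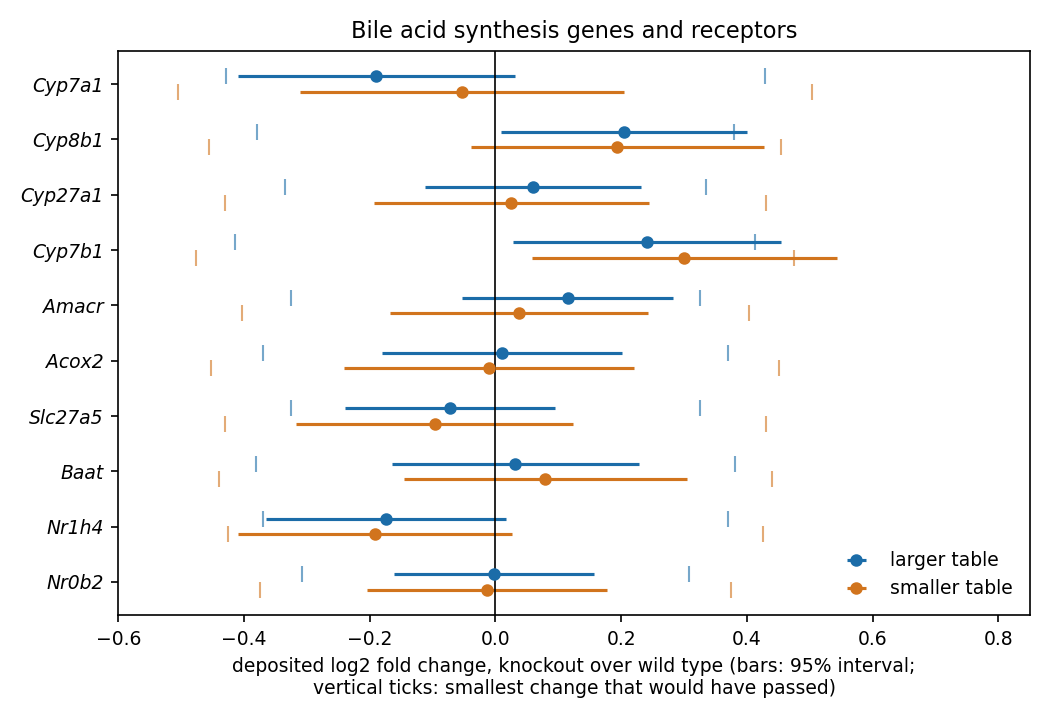
Deposited log2 fold changes of the 10 genes, knockout over wild type (x axis), with 95% intervals as bars, for the larger (blue) and the smaller table (orange). Short vertical ticks mark the smallest change that would have passed for that gene; every point lies inside its ticks, and Cyp7b1, at 0.24 and 0.30, lies nearest to them.

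Cyp7a1, the rate-limiting enzyme of the classic pathway (ENSMUSG00000028240; GRCm38 chromosome 4, 6265612 to 6275633, minus strand), stood at -0.19 ± 0.11 in the larger of the authors' deposited tables (mean count 2321, 95% interval -0.41 to 0.03, p = 0.0923). In the authors' deposited smaller table it was at -0.05 ± 0.13 (mean count 841, interval -0.31 to 0.21, p = 0.689). Both intervals include 0. Cyp8b1, the sterol 12-alpha-hydroxylase that sets the share of cholic acid (chromosome 9, 121914356 to 121916305, minus strand), stood at 0.20 ± 0.10 in the larger of the authors' deposited tables (mean count 18249, interval 0.01 to 0.40, p = 0.0398). Its value in the authors' deposited smaller table was 0.19 ± 0.12, at a mean count of 9109, with an interval of -0.04 to 0.43 and DESeq2's Wald p = 0.102. The 2 enzymes of the classic pathway thus had point estimates of opposite sign, and neither passed after adjustment (adjusted p = 1.00 for both in the larger and 0.999 for both in the smaller of the authors' deposited tables).

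Cyp7b1, the oxysterol 7-alpha-hydroxylase of the alternative pathway (chromosome 3, 18071950 to 18243338, minus strand), had the highest fold change of the 10 genes in both deposited tables. It stood at 0.24 ± 0.11 in the larger of the authors' deposited tables (mean count 1642, interval 0.03 to 0.45, p = 0.0266, adjusted p = 1.00) and at 0.30 ± 0.12 in the smaller (mean count 1246, interval 0.06 to 0.54, p = 0.0154, adjusted p = 0.782). Its absolute fold change was above that of 97.6% and 97.9% of tested genes, and as a linear ratio it was 1.18 and 1.23. Cyp27a1, the mitochondrial sterol 27-hydroxylase of the same pathway (chromosome 1, 74713574 to 74737892, plus strand), was at 0.06 ± 0.09 and 0.03 ± 0.11 in the authors' deposited tables, at means of 8952 and 5895 counts.

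The enzymes of the later steps had 95% intervals that included 0 in both tables. Absolute fold changes of Amacr and Slc27a5 were above those of 82.5% and 63.1% of tested genes (larger table) and 27.7% and 63.7% (smaller). For Acox2 and Baat the shares were 10.3% and 31.1% (larger) and 8.02% and 54.3% (smaller). Amacr, the racemase that turns the side chain into the form the peroxisome can shorten (chromosome 15, 10981756 to 10996626, plus strand), was at 0.11 ± 0.09 and 0.04 ± 0.11 in the authors' deposited tables. Acox2, the oxidase of the peroxisomal shortening (chromosome 14, 8225511 to 8259353, minus strand), was at 0.01 ± 0.10 and -0.01 ± 0.12 there. Slc27a5, the ER ligase that joins bile acids to CoA (chromosome 7, 12988346 to 12998192, minus strand), was at -0.07 ± 0.09 and -0.10 ± 0.11 in the deposited tables, and Baat, which adds taurine or glycine (chromosome 4, 49489422 to 49506557, minus strand), at 0.03 ± 0.10 and 0.08 ± 0.11. Over these 4 genes and Cyp27a1, the 95% intervals of the authors' deposited estimates spanned -0.24 to 0.28 (larger table) and -0.32 to 0.30 (smaller table), and the lowest unadjusted p was 0.181 and 0.388.

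Nr1h4, the bile acid receptor FXR (chromosome 10, 89454234 to 89533585, minus strand), stood at -0.17 ± 0.10 in the larger of the authors' deposited tables (mean count 4799, interval -0.36 to 0.02, p = 0.0740) and at -0.19 ± 0.11 in the smaller (mean count 6742, interval -0.41 to 0.03, p = 0.0843). As linear ratios these were 0.887 and 0.876, and neither passed after adjustment (adjusted p = 1.00 and 0.999). Nr0b2, the repressor SHP that FXR induces (chromosome 4, 133553376 to 133556536, plus strand), was at -0.002 ± 0.081 and -0.013 ± 0.098 in the authors' deposited tables, at means of 426 and 561 counts. Among the 10 genes only Acox2, in the smaller table, lay nearer to 0. The small standard errors have more than one reading, described next.

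The values have the pattern of estimates that DESeq2 moderates towards 0, although no header or label records that step. The standard errors of such estimates become small where a gene's own data carry little information. Across all genes the deposited standard error climbed with the mean to a ceiling, 0.123 (larger table) or 0.142 (smaller), and fell at higher means. Its median in the larger table was 0.0745 at means of 10 to 30 counts, 0.122 at 100 to 300 and 0.0877 above 10000. A standard error below the ceiling can thus belong to a very precise gene or to a very imprecise one, and under this reading each gene has 2 solutions for its unmoderated value. Nr0b2 had a lower standard error than nearly all genes of like abundance: only 6 of 1545 genes with a mean within 25% of its own were lower in the larger table, and 2 of 1432 in the smaller, where the medians were 0.116 and 0.131. The precise solution for Nr0b2 was an unmoderated standard error of 0.0923 and 0.113, below the median of 0.103 and 0.138 over genes with means above 10000. The imprecise solution was -0.02 ± 0.65 in the larger table, with a 95% interval of -1.30 to 1.26, and -0.10 ± 0.71 in the smaller, with an interval of -1.49 to 1.30. Which solution applies was not tested, and the tables hold no value per library that would settle it. The intervals of the imprecise solution include 2-fold changes of the SHP transcript in either direction.

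**Figure D2:**
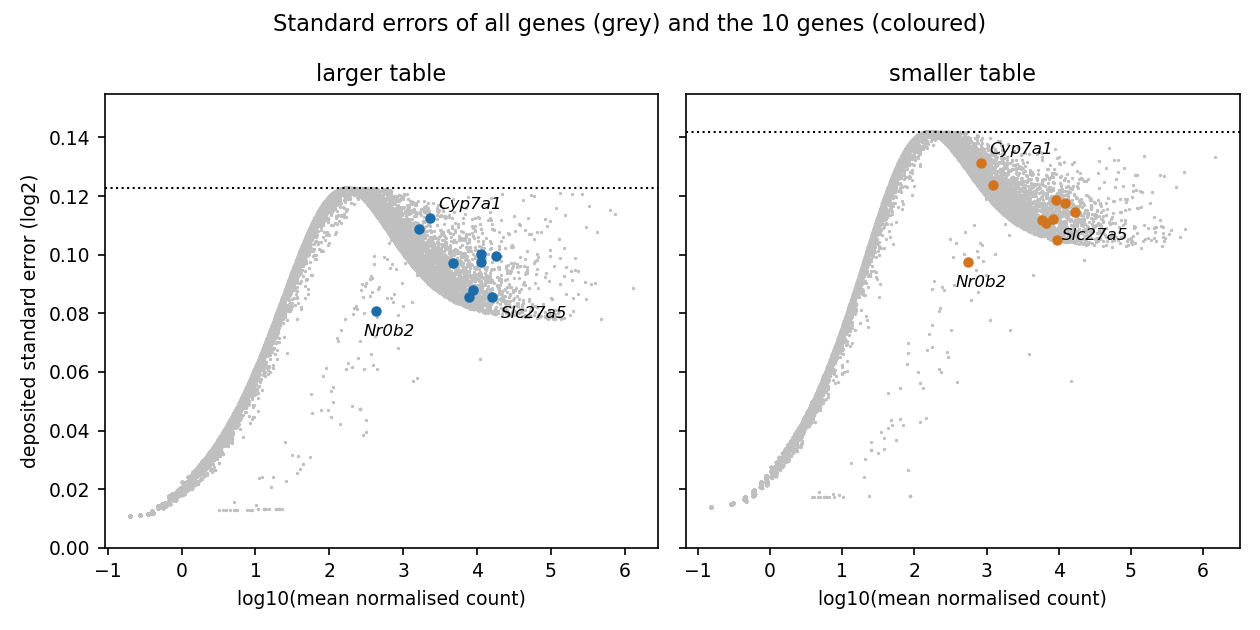
Deposited standard error of the log2 fold change (y axis) against the mean normalised count on a log10 scale (x axis) for every gene (grey) and the 10 genes (coloured), in each table; the dotted line is the ceiling of 0.123 or 0.142. Nr0b2 lies below the band of genes of like mean, and Cyp7a1 lies towards the upper edge of its own.

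For Cyp7a1 the standard error of 0.113 in the larger table was higher than that of 1031 of the 1056 genes of similar mean. Its 2 unmoderated solutions there were -0.27 ± 0.16 (95% interval -0.59 to 0.04) and -0.63 ± 0.37 (-1.36 to 0.10), and in the smaller table -0.08 ± 0.19 (-0.45 to 0.30) and -0.17 ± 0.42 (-0.99 to 0.66). The other members have a pair of solutions as well, and which of each pair applies was not tested. In the larger table the deposited standard errors of Cyp7b1, Cyp8b1 and Nr1h4 were 0.109, 0.0997 and 0.0972. The medians of genes of similar mean were 0.0976, 0.0876 and 0.0896. For Cyp7b1 the solutions were 0.33 ± 0.15 or 0.89 ± 0.40 (larger table) and 0.40 ± 0.17 or 1.17 ± 0.48 (smaller). For Cyp8b1 they were 0.26 ± 0.13 or 0.98 ± 0.48, and 0.25 ± 0.15 or 0.86 ± 0.52. For Nr1h4 they were -0.22 ± 0.12 or -0.89 ± 0.50, and -0.24 ± 0.14 or -1.02 ± 0.59. Taking the precise solution for every gene, the median standard error at means of 1000 to 3000 counts, the range of Cyp7b1, was 0.123 and 0.153. At 3000 to 10000 counts, the range of Nr1h4, it was 0.107 and 0.139, and above 10000 counts 0.103 and 0.138. Amacr had a lower standard error than all but 8 of 331 genes of similar mean in the smaller table, with solutions of 0.04 ± 0.13 and 0.23 ± 0.64. Both solutions of a gene have the same sign. Undoing the moderation leaves each Wald statistic and p as deposited.

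No member passed a test of the difference in effect between the tables. The difference of the log2 fold changes (smaller minus larger) was furthest from 0 for Cyp7a1, at 0.14 ± 0.17 (95% interval -0.20 to 0.48), and ran from -0.08 for Amacr to 0.06 for Cyp7b1 over the other 9 genes. The lowest unadjusted p among the members was 0.428 (z test, adjusted p = 1.00 over 11604 genes). Of all genes, 0.0172% passed this test and 0.138% had an unadjusted p under 0.05. The z values had an SD of 0.54 over all genes, narrower than the test assumes. The test was thus strict, and a difference that did not pass does not show that the effects were alike. No member passed with the z values scaled by their SD either.

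The 10 genes differed widely in level. Per kilobase of merged exons, Cyp8b1 had the highest mean normalised count in the larger table, at 9359, followed by Slc27a5 at 6583, Baat at 5875, Cyp27a1 at 4120, Acox2 at 3013 and Amacr at 2985. The receptor Nr1h4 stood at 2084 counts per kilobase in that table. Cyp7b1, Cyp7a1 and Nr0b2 were lowest, at 758, 556 and 376 counts per kilobase, or the 82.7th, 79.0th and 72.7th percentile of tested genes. Cyp8b1 was thus 16.8 times as high as Cyp7a1 per kilobase in the larger table. In the smaller table Baat led at 8727 counts per kilobase, followed by Cyp8b1 at 4671 and Amacr at 3581, and Cyp7a1 was last at 201, the 60.6th percentile. Without values per library it cannot be said which neighbours in these orders differ beyond their spread; with the longest transcript as length, Acox2 and Amacr changed places in the smaller table.

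**Figure D3:**
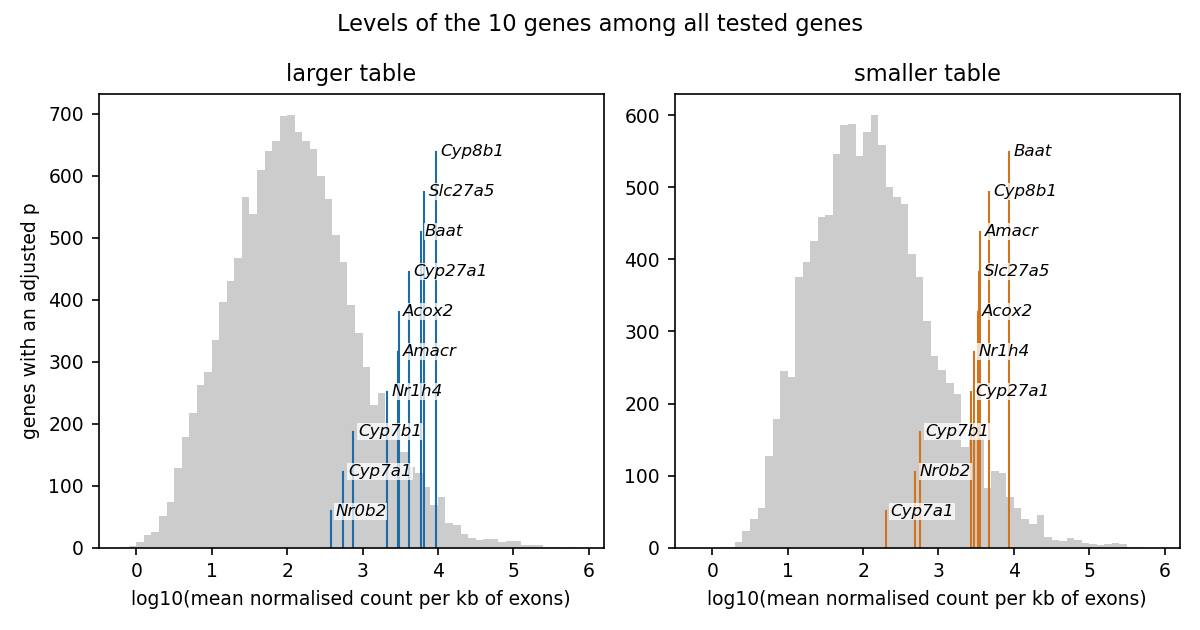
Distribution of the log10 mean normalised count per kilobase of merged exons over all genes with an adjusted p (grey, y axis in genes), with the 10 genes as labelled lines whose heights only separate the labels. In both tables the conjugating enzymes and Cyp8b1 sit in the upper tail, and Cyp7a1, Cyp7b1 and Nr0b2 nearer to the middle.

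The mean counts of the tables, which were normalised separately, were compared relative to the median gene, whose mean was 0.25 lower on the log2 scale in the smaller table over 11604 genes. The 4 members whose proteins sit in the ER membrane were all below the median gene, at -1.21 for Cyp7a1, -0.75 for Cyp8b1, -0.68 for Slc27a5 and -0.14 for Cyp7b1, and mitochondrial Cyp27a1 was at -0.35. The other 5 members were all above it, at 0.83 for Baat, 0.74 for Nr1h4, 0.65 for Nr0b2, 0.52 for Amacr and 0.38 for Acox2. Their proteins are nuclear, cytosolic or peroxisomal, and that of Amacr is mitochondrial as well, so mitochondrial members lay on both sides. The middle 50% of all genes lay between -0.45 and 0.47. The bile acid transporter list, of plasma membrane proteins, also holds the lipid transporters Abcb4, Abcg5, Abcg8 and Atp8b1. All 11 of its genes with an adjusted p in both tables were below the median gene too, with a median of -0.95. So was Por, the ER reductase that passes electrons to P450 enzymes, at -1.34. The split did not hold for every ER protein: Cyb5a and Cyb5r3, the cytochrome b5 and its reductase, were at 1.23 and 0.70, and the peroxisomal carrier Scp2 was at -2.56. Longer genes had lower ratios (Spearman's rho -0.25 across 11575 genes, which share libraries and are not replicates). Among the members, Cyp7a1 had the longest merged exons, at 4.17 kb, and Nr0b2 the shortest, at 1.13 kb. Acox2 (3.70 kb) and Amacr (2.61 kb), the next longest, lay above the median gene, and Cyp8b1 (1.95 kb) lay below it. The part of length in the split was not tested.

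**Figure D4:**
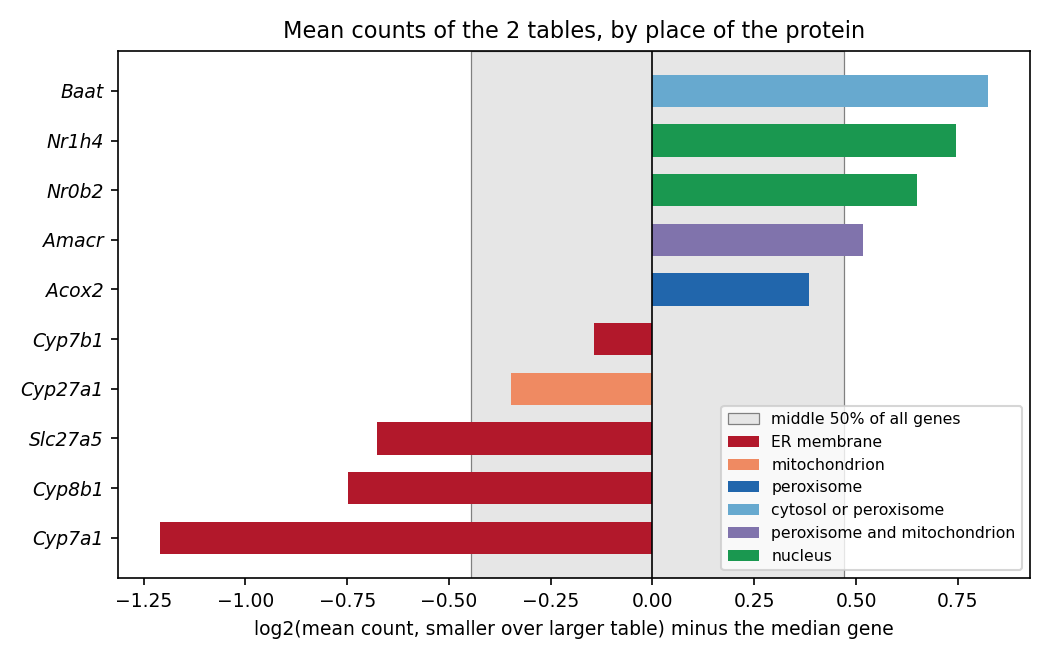
Log2 ratio of each gene's mean count in the smaller over the larger table, minus that of the median gene (x axis), as bars coloured by where the protein resides; the grey band is the middle 50% of all genes. The 4 ER membrane members and Cyp27a1 lie between -1.21 and -0.14, and the other 5, among them Amacr of peroxisomes and mitochondria, between 0.38 and 0.83.

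Genes of the remaining steps and of related processes were described from lists. Of the 21 genes listed as other synthesis and side-chain enzymes, 19 and 18 were tested and none passed. Of these, 10 and 9 were above 0, with medians of 0.02 and -0.005. By the mean of the 2 fold changes, the furthest from 0 was Cyp2c70, which makes the muricholic acids of mice, at -0.28 ± 0.12 and -0.11 ± 0.13 in the authors' deposited tables. Acaa2, a mitochondrial and not a peroxisomal thiolase, was at -0.09 ± 0.08 and -0.22 ± 0.10 in the deposited tables. Ehhadh, a peroxisomal enzyme of beta-oxidation, was at 0.09 ± 0.12 and 0.15 ± 0.13 there. Of the detoxifying enzymes 7 and 6 were tested and none passed. By the same mean the furthest from 0 were Cyp3a13, at 0.17 ± 0.11 and 0.25 ± 0.13, Sult2a8, at 0.06 ± 0.10 and 0.18 ± 0.12, and Cyp3a11, at -0.16 ± 0.09 and -0.05 ± 0.10 in the authors' deposited tables. None of the 5 P450 carriers and electron donors passed, and 4 of the 5 lay below 0 in each table, among them Cyb5r3 at -0.12 ± 0.09 and -0.19 ± 0.11, Pgrmc1 at -0.15 ± 0.08 and -0.09 ± 0.11, and Cyb5b at -0.13 ± 0.09 and -0.10 ± 0.11 in the deposited tables.

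Of the 15 genes on the bile acid transporter list, 13 and 11 were tested. Slco1a4, a sinusoidal uptake carrier of bile salts and organic anions, rose in the smaller table, at 0.56 ± 0.13 (adjusted p = 0.0146), and was at 0.22 ± 0.12 in the larger (adjusted p = 1.00, both in the authors' deposited tables, DESeq2's Wald test). The difference between the tables did not pass (z test, adjusted p = 1.00), which under so strict a test does not show that the effects were alike. The related uptake carrier Slco1a1 was at -0.29 ± 0.10 and -0.12 ± 0.12, and Slc10a1, the sodium-dependent carrier NTCP, at -0.20 ± 0.09 and -0.14 ± 0.11 in the deposited tables without passing. Of the 33 regulators, 30 were tested in each table, and Ppargc1a, a coactivator of the fasting response that also acts with HNF4A, rose in both, by 0.51 ± 0.12 and 0.67 ± 0.13 in the authors' deposited tables (adjusted p = 0.00648 and 0.000667). The clock-linked repressor Bhlhe40 was at -0.26 ± 0.11 and -0.23 ± 0.13, and Dbp, a clock output factor that acts on Cyp7a1, at -0.19 ± 0.12 and -0.17 ± 0.12 in the deposited tables. Hnf4a, an activator of Cyp7a1 and Cyp8b1, was at 0.03 ± 0.10 and 0.03 ± 0.12, and Nr5a2 (LRH-1), a target of SHP, at -0.08 ± 0.09 and 0.10 ± 0.11 in the authors' deposited tables. Fgfr4 and Klb, the hepatocyte receptors for the gut hormone FGF15, were at 0.12 and -0.13 (larger) and 0.11 and -0.09 (smaller) in the authors' deposited tables. Hnf4a, Nr5a2, Fgfr4, Klb, and above Por, Cyb5a and Scp2, were named after their values were seen.

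Several of these genes are zoned along the liver lobule, and the medians of periportal and pericentral markers had opposite signs, with no marker passing. Of periportal markers, 11 of 13 and 12 of 13 were above 0, with medians of 0.16 and 0.20. Against 3.62% and 4.11% of all tested genes, 5 periportal markers in each table had an unadjusted p under 0.05. In the larger, 4 of these were above 0 (Arg1, Cdh1, Gls2 and Asl) and Cyp2f2 was below, at -0.18 ± 0.09 in the authors' deposited table. In the smaller all 5 were above 0 (Arg1, Cdh1, Cps1, Asl and Ass1). Arg1 was at 0.37 ± 0.11 and 0.38 ± 0.12 in the authors' deposited tables (adjusted p = 0.0975 and 0.250). Of pericentral markers, 7 of 12 and 8 of 11 were below 0, with medians of -0.07 and -0.09, with Cyp1a2 at -0.21 ± 0.09 and -0.22 ± 0.12 in the authors' deposited tables. Kupffer cell and macrophage markers were below 0 in 11 of 12 and 12 of 12 cases, with medians of -0.09 and -0.11. Of 6 red cell genes, 4 were tested in each table, among them the related globins Hba-a1, Hba-a2 and Hbb-bt, which are not separate cases. All 4 had an unadjusted p under 0.05 in both, where 3.62% and 4.11% of all tested genes did. The 4 red cell genes lay below 0 in both tables, with medians of -0.30 and -0.40. None of these passed, nor did any hepatocyte (6 and 5 of 9 above 0), bile duct (2 and 3 of 7), sinusoidal endothelial (4 and 3 of 7) or stellate cell marker (2 of 8 and 3 of 6). Their part in the members' values was not tested. In such RNA, fewer cells of a type and less RNA per cell cannot be told apart.

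By distance of the pair of fold changes over the 2 tables, the 5 genes most like Cyp7a1 were Pecam1, Tmem33, Slc17a3, Palld and Ptpn3, and those most like Cyp8b1 were Hnrnpa1, Rnf149, Igfbp1, Cox6b2 and Rasl10b, all within 0.012. With only 2 tables, 130 and 135 of 11604 genes lay within 0.05 of Cyp7a1 and Cyp8b1, so the likeness is not particular to the named genes.

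The 4 members with a polyadenylation element were at -0.19 (Cyp7a1), 0.24 (Cyp7b1), -0.17 (Nr1h4) and 0.11 (Amacr) in the larger of the authors' deposited tables, and at -0.05, 0.30, -0.19 and 0.04 in the other. They thus lay on both sides of 0. Over all tested genes, those with an element had medians of -0.01 and 0.02, and those without -0.01 and -0.04. Passing genes made up 0.340% and 0.325% of those with an element and 0.359% and 0.225% of those without. The genes with and without an element were not matched for the length of sequence after the stop codon. The part of that length in these values was not tested. The sequence of 8 members shared no 31-base word with another annotated gene; 0.0959% of the words of Cyp7a1 and 1.05% of those of Acox2 did. Cyp7b1 overlaps 1 other annotated gene, Gm23686.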

How the data were processed

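The authors deposited 2 tables of their own genotype comparison, with no values per library. Per the file headers, the columns are a mean signal per gene (size-factor-normalised counts, averaged), the log2 fold change and its standard error, the Wald statistic (a score), and the raw and adjusted p-value. The submitters' processing notes name STAR 2.3.0e, DESeq2 1.6.3 and mm10. For annotation, counter and strand setting nothing was given in the sources used here. Genes without an adjusted p counted as not tested, and the lowest tested means were 17.4 and 31.9. The count-based tests planned for such series need counts per library and were not run, so the authors' Wald test is the test throughout, at an adjusted p of 0.05.

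From the tables, 95% intervals, a z test of the difference between tables (Benjamini-Hochberg over 11604 genes, tables taken as independent) and counts per kilobase were computed. The moderation towards 0, inferred from the values since no header records it, was undone by taking each estimate as a ridge estimate whose standard error has a ceiling of 1 over 2 times the root of the penalty; dividing fold change by standard error gave the Wald statistic for all genes. This step was added after seeing the data. Both calculations were run on simulated data. The check of the moderation counted a gene as recovered if either solution matched, so it did not test which one applies. The check of the z test planted a log2 difference of 1, larger than any among the members. Its spread equalled the standard errors, whereas the z values of the data had an SD of 0.54. Symbols came from GENCODE M21 (23484 and 21080 identifiers matched). Python 3.11.15, pandas 2.3.3, numpy 2.4.6, scipy 1.17.1 and matplotlib 3.10.9 were used.

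The members and lists were chosen with earlier results of these data known. Named genes are all members, every passing gene of 13 further lists, the 3 per list whose mean fold change over the tables is furthest from 0, and the 5 nearest to Cyp7a1 and Cyp8b1. The text gives them for the lists nearest to the pathway. Outside this rule, Gls2, Asl, Ass1 and Cyp2f2 were named for their unadjusted p, and Krt19 as a bile duct marker. The genes stated above as named after their values were seen are outside it too.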

Additional observations from a re-analysis of the deposited data

How the results depend on the processing

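No member passed under any alternative: no filter on the mean, a mean count of at least 100, Benjamini-Yekutieli adjustment, or centring on the median gene. Over these and the undone moderation (added after seeing the data), the lowest adjusted p of a member was 0.697. These alternatives keep a fold change, or nearly so, or keep its sign by construction, so they do not test the members' signs. Benjamini-Yekutieli left 26 of 42 passing genes in the larger table and 13 of 31 in the smaller. Under it Slco1a4 in the smaller table and Ppargc1a in the larger no longer passed (adjusted p = 0.145 and 0.0657); the stricter adjustment itself is the cause. The test of the difference between tables passed 2 genes, Ren1 and Trim30a, neither a member; it passed 1 with a mean count of at least 100 in both tables and 10 with z values scaled by their SD, where the cause was not tested for the former and the scaling is the cause of the latter. No paired analysis was possible because the deposited tables hold no values per library; leaving out a replicate and tests of counts were not run for the same reason. The deposited standard errors alone do not show how precisely a gene was measured.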
